A study of Mus musculus with 12 samples.

Results

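The average effect of a maple syrup extract (MSX) on liver gene expression was taken over mice on a low-fat and on a high-fat diet. All 12 arrays of the series were used, 6 with MSX against 6 control arrays with diet as an additive factor, and the effect was tested in 22180 genes. These are the genes for which a probe set names 1 gene, with the probe set of highest mean taken where a gene had several, out of 41345 probe sets on the array. The question was which liver genes differed with the extract when both diets were averaged, and how alike the changes were on each diet.

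Total RNA came from the liver of male C57BL6 mice that were 6 weeks old at the start and 18 weeks old at the end. For 12 weeks they ate freely a diet with 10% or 45% of its energy from fat. The diet either held no extract (control) or 0.5% (w/w) MSX, a food-grade extract enriched in the phenols of maple syrup. This gave 4 groups of 3 arrays each, control and MSX on either diet, which the labels call biological replicates. The labels do not say which other compounds the extract carries, how much each mouse ate or at what hour livers were taken. Each value below is a log2 array value, and a difference is MSX minus control on that scale, so that 1 is a 2-fold change. Array medians lay between 4.68 and 4.75 and any 2 arrays correlated at 0.973 to 0.984. The hepatocyte gene Alb read 13.88 to 13.95 in the 12 arrays and Ttr 13.44 to 13.64, and the 10 measured hepatocyte markers held no gene past the threshold.

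Fatty acids enter hepatocytes through membrane transporters, are activated to acyl-CoA, and are then oxidised, exported in lipoproteins or stored as triglyceride in lipid droplets. The nuclear receptor PPAR alpha switches on many genes of fatty acid oxidation, PPAR gamma promotes fat storage, and SREBP factors drive the synthesis of fatty acids and cholesterol. Male and female mouse livers differ in many enzymes because growth hormone is released in pulses in males and more evenly in females.

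With MSX, 39 genes fell and 28 rose at an adjusted p under 0.05 (limma, Benjamini-Hochberg over all genes). The 67 genes are 0.302% of those tested, 0.176% for the lower and 0.126% for the higher ones. An unadjusted p under 0.05 was reached by 2154 genes (9.71%). The genes that fell included fatty acid transporters, lipid droplet proteins, acyl-CoA thioesterases and PPAR alpha targets. Among those that rose were genes known for higher expression in male liver, a bile acid hydroxylase and coagulation factor XI. The change was at least 2-fold in 12 of the genes that fell and in 5 of those that rose. The median size was 0.75 in the 67 genes and 0.09 in all genes. Setting all array medians equal gave 29 lower and 35 higher genes, so that the share of higher calls moved from 41.8% to 54.7%. Leaving out 1 array at a time gave between 26 genes (without low-fat MSX replicate 1) and 53 (without high-fat MSX replicate 3), and 25 of the 67 passed in all 12 of these fits. For named genes that failed in some of these 12 fits, the number passed or the fit that failed is given below with the highest adjusted p. The last named genes share 1 range. All other named genes past the threshold passed in all 12, with a limma adjusted p of up to 0.0469 (Acot2).

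The uptake of fatty acids was the step of the gene with the lowest p. Slc27a1 encodes a fatty acid transport protein that also activates fatty acids to acyl-CoA. It read 6.70, 6.88 and 6.76 in low-fat control and 5.74, 5.65 and 5.59 in low-fat MSX arrays. In high-fat arrays it read 6.72, 7.04 and 6.81 in control and 5.82, 5.91 and 5.94 in MSX arrays. All 6 MSX arrays lay below all 6 control arrays, and the values of both diets lay close together. Slc27a1 fell by 1.05 (SE 0.08, limma adjusted p = 6.49e-05), with -1.12 on the low-fat and -0.97 on the high-fat diet. Cd36, the fatty acid translocase and scavenger receptor, read 9.02, 9.68 and 9.42 in low-fat control and 8.46, 8.85 and 7.95 in low-fat MSX. High-fat control arrays read 10.40, 10.04 and 10.58 and high-fat MSX arrays 9.12, 8.26 and 8.54. The groups did not overlap within either diet, while 1 high-fat MSX array lay above the lowest low-fat control array. Cd36 fell by 1.33 (SE 0.20, limma adjusted p = 0.0113). Both genes passed in all 12 fits that left out 1 array, with a limma adjusted p of up to 0.0445 for Cd36. Of the 15 measured genes of fatty acid uptake and binding these 2 fell and 0 rose. The median change of the list was -0.05, beside -0.0014 for all genes. At an unadjusted p under 0.05, 3 lay lower and 2 higher, against 4.38% and 5.33% of all genes. Fabp5 of this list was higher by 0.78 and did not pass, and its dimmer probe sets gave 1.67, 1.62 and 0.53.

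Lipid droplet proteins showed the largest falls among the genes past the threshold. Cidec makes small lipid droplets fuse into large ones. It read 7.63, 7.17 and 7.46 in low-fat control and 5.37, 5.72 and 6.15 in low-fat MSX. It read 9.30, 7.10 and 7.30 in high-fat control and 5.44, 5.75 and 5.52 in high-fat MSX. High-fat control replicate 1 stood above every other array, and no MSX array reached a control array. Cidec fell by 2.0 (SE 0.30, limma adjusted p = 0.0113), a 4.0-fold difference, and by 1.65 without high-fat control replicate 1 (adjusted p = 0.000157). Over all 12 fits without 1 array its limma adjusted p was up to 0.0452. Cidec did not pass when every probe set was tested (limma adjusted p = 0.0651). Plin4, which coats lipid droplets, read 7.12, 7.05 and 7.10 in low-fat control and 5.76, 6.22 and 5.67 in low-fat MSX. In high-fat control it read 8.21, 8.47 and 7.80, and in high-fat MSX 6.00, 6.02 and 6.16. The control arrays differed between the diets and the MSX arrays of both diets lay in 1 range. Plin4 fell by 1.65 (SE 0.17, limma adjusted p = 0.000764), by 1.20 on the low-fat and 2.10 on the high-fat diet. G0s2, an inhibitor of the lipase that opens triglyceride stores, ranged from 8.96 to 9.45 in control and from 8.12 to 8.65 in MSX arrays. The ranges did not overlap, and G0s2 fell by 0.78 (SE 0.10, limma adjusted p = 0.00511); its dimmer probe set gave -0.47. Of 19 measured lipid droplet and lipolysis genes, 3 fell, 0 rose and 16 lay below 0, as did 50.5% of all genes. The list had a median of -0.20 on both diets together, and of -0.20 on each diet alone.

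**Figure D1:**
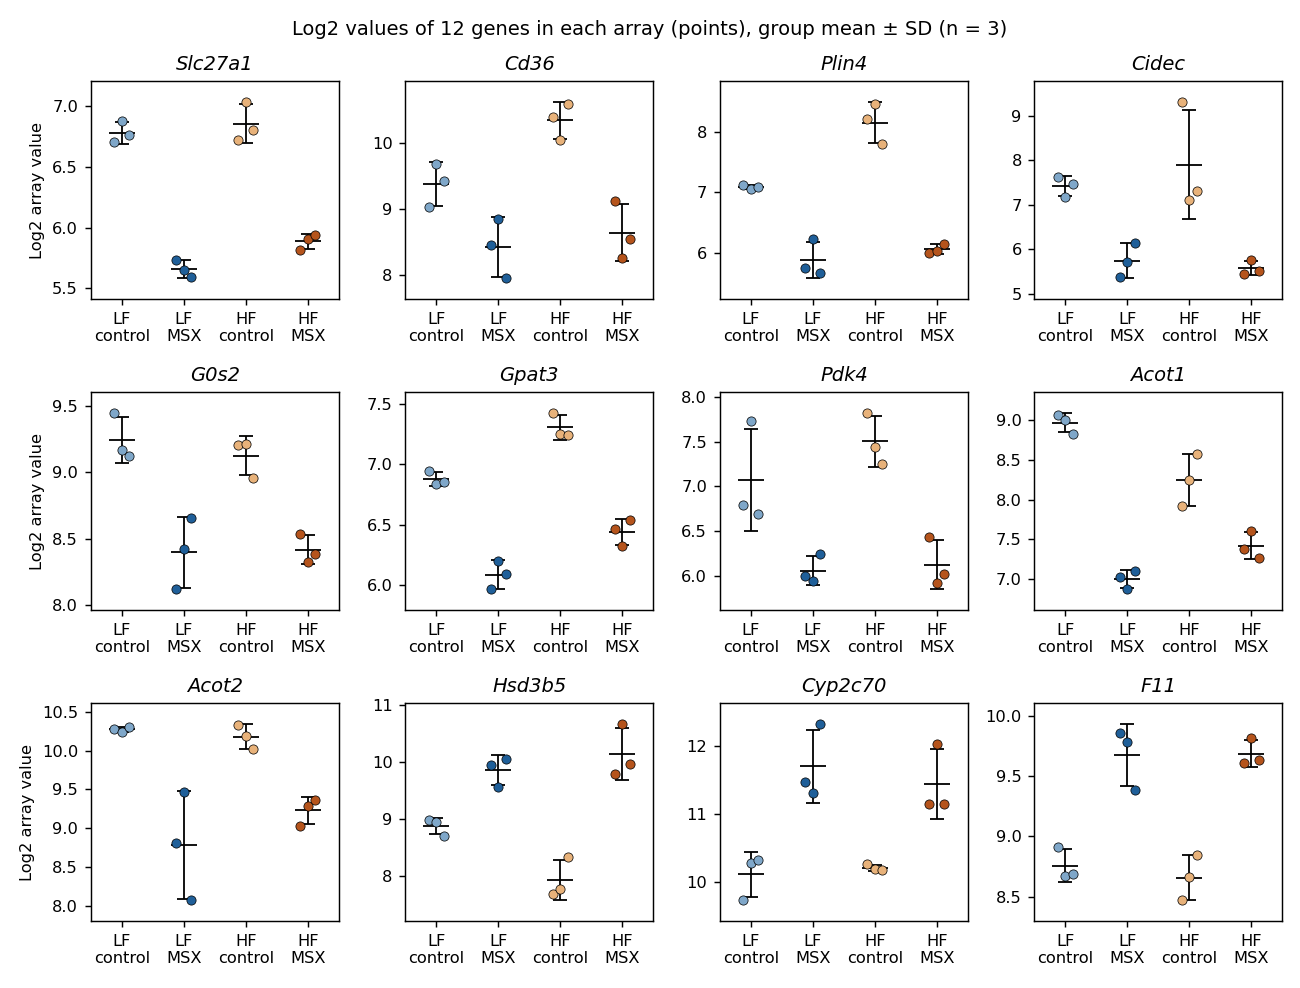
Log2 array values (vertical axes) of 12 genes in low-fat (LF) and high-fat (HF) control and MSX groups; each point is 1 array, and bars give the group mean ± SD (n = 3). In Slc27a1, Plin4, Cidec, G0s2, Gpat3, Pdk4, Acot1 and Acot2 all 6 MSX arrays lie below all 6 control arrays, and in Hsd3b5, Cyp2c70 and F11 all 6 lie above them.

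Storage of fatty acids as triglyceride begins with acyl transfer to glycerol phosphate, a step that Gpat3 catalyses. Gpat3 read 6.94, 6.84 and 6.86 in low-fat control and 5.97, 6.20 and 6.09 in low-fat MSX arrays. The high-fat control values were 7.42, 7.26 and 7.24, and those with MSX 6.47, 6.33 and 6.54. The MSX arrays lay below the control arrays of either diet, and within each agent the high-fat arrays lay above the low-fat ones. Gpat3 fell by 0.83 (SE 0.08, limma adjusted p = 0.000388), and its dimmer probe set gave -0.38. Pparg, which encodes the receptor PPAR gamma, ranged from 6.41 to 7.67 (median 6.95) in control and from 5.70 to 6.67 (median 6.04) in MSX arrays. These ranges overlapped across diets but not within a diet. Pparg fell by 0.86 (SE 0.15, limma adjusted p = 0.028) and passed in 5 of 12 fits without 1 array, with an adjusted p of up to 0.0736. Of 17 measured genes of glycerolipid synthesis these 2 fell and 0 rose, and the list median was -0.07. Abhd2, a monoacylglycerol lipase, read 9.24 to 9.91 in control and 8.29 to 8.85 in MSX arrays without overlap and fell by 1.06 (limma adjusted p = 0.00324). Ildr2, which is known for a part in hepatic lipid handling, gave -0.84 (limma adjusted p = 0.0344) in its brighter and -0.26 in its dimmer probe set. It passed in 3 of 12 fits without 1 array, with an adjusted p of up to 0.101.

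Acyl-CoA thioesterases release free fatty acids from acyl-CoA. Acot1, the cytosolic enzyme, read 9.06, 9.01 and 8.83 in low-fat control and 7.03, 6.88 and 7.10 in low-fat MSX. On the high-fat diet Acot1 read 7.92, 8.25 and 8.57 in control and 7.39, 7.61 and 7.27 in MSX. The 6 MSX arrays lay below the 6 control arrays, with the wider gap on the low-fat diet. Acot1 fell by 1.39 (SE 0.19, limma adjusted p = 0.00511), with -1.96 on the low-fat and -0.83 on the high-fat diet. This difference between diets did not pass (limma interaction adjusted p = 0.664). Acot2, the mitochondrial enzyme, ranged from 10.02 to 10.33 in control and from 8.08 to 9.47 in MSX arrays. The MSX arrays were spread far more widely than the control arrays, and Acot2 fell by 1.22 (SE 0.19, limma adjusted p = 0.0113). The genes of this cluster are near-identical copies, so that probes of one may read another. Of 11 measured thioesterases these 2 fell and 0 rose, and 4 lay lower at an unadjusted p under 0.05, against 4.38% of all genes. The list median was -0.11. The uncalled neighbours Acot3 and Acot4 had -1.10 (limma adjusted p = 0.182) and -0.46 (limma adjusted p = 0.178).

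Genes of fatty acid oxidation and other PPAR alpha targets lay lower. Pdk4 encodes a kinase that blocks entry of pyruvate into the citrate cycle when fat is burned. It read 6.79, 7.73 and 6.69 in low-fat control and 5.99, 5.94 and 6.24 in low-fat MSX arrays. In high-fat arrays it read 7.82, 7.45 and 7.26 in control and 6.44, 5.92 and 6.02 in MSX arrays. No MSX array reached a control array, and low-fat control replicate 2 stood above the other low-fat arrays. Pdk4 fell by 1.20 (SE 0.17, limma adjusted p = 0.00854). Pex11a, which helps peroxisomes to divide, ranged from 9.38 to 9.84 in control and 8.85 to 9.40 in MSX arrays. Its groups did not overlap within a diet, and it fell by 0.54 (SE 0.09, limma adjusted p = 0.0145). Without low-fat MSX replicate 1 the change was -0.51 with an adjusted p of 0.0567.

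Fgf21, a hormone that the liver releases in fasting, read 7.49, 7.04 and 8.06 in low-fat control and 6.09, 6.43 and 5.54 in low-fat MSX. High-fat control arrays read 7.65, 7.11 and 6.98, and high-fat MSX arrays 6.58, 6.30 and 6.65. The arrays of both agents did not overlap, and Fgf21 fell by 1.12 (SE 0.21, limma adjusted p = 0.0444). The omega hydroxylase Cyp4a14 ranged from 12.55 to 13.07 in control and from 10.94 to 12.37 in MSX arrays. High-fat MSX replicates 1 and 3 lay near the control range, at 12.37 and 12.26, and replicate 2 at 11.09. Cyp4a14 fell by 1.18 (SE 0.22, limma adjusted p = 0.0444), and its near-identical relative Cyp4a31 by 1.03 (limma adjusted p = 0.0395). Fgf21 and Cyp4a14 passed in 2 and Cyp4a31 in 4 of 12 fits without 1 array, with adjusted p-values of up to 0.114 for Fgf21, 0.114 for Cyp4a14 and 0.101 for Cyp4a31. Of 40 measured genes of this list, 5 fell (0.176% of all genes did), 0 rose and 36 lay below 0, against 50.5% of all genes. At an unadjusted p under 0.05, 21 lay lower, against 4.38% of all genes. The list median was -0.22, with -0.31 on the low-fat and -0.11 on the high-fat diet. Of the 40 genes 28 had the same sign on both diets, against 55% of all genes. Ppara itself, the receptor's gene, ranged from 9.83 to 9.97 in control and from 9.58 to 9.97 in MSX arrays, a difference of -0.04 (limma adjusted p = 0.927). Outside the list, Acnat2, an acyltransferase of fatty acids, fell by 1.05 (limma adjusted p = 0.036; 4 of 12 fits, up to 0.0862). Retsat, which saturates retinol, fell by 0.66 (limma adjusted p = 0.036; 3 of 12 fits, up to 0.105).

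The genes that rose were led in size by a male-specific enzyme. Hsd3b5, a steroid dehydrogenase of male mouse liver, read 8.98, 8.94 and 8.72 in low-fat control and 9.96, 9.56 and 10.06 in low-fat MSX. It read 7.69, 7.78 and 8.34 in high-fat control and 9.80, 10.66 and 9.96 in high-fat MSX. High-fat control arrays were the lowest, and the MSX arrays of both diets lay above every control array. Hsd3b5 rose by 1.59 (SE 0.22, limma adjusted p = 0.00757), with 0.98 on the low-fat and 2.21 on the high-fat diet. This difference did not pass (limma interaction adjusted p = 0.75). Nudt7, a peroxisomal enzyme that breaks down coenzyme A, ranged from 10.18 to 10.54 in control and from 10.85 to 11.68 in MSX arrays. The ranges did not overlap, and Nudt7 rose by 0.94 (SE 0.13, limma adjusted p = 0.00795). Both passed in all 12 fits without 1 array.

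Cyp2u1, a fatty acid hydroxylase, rose by 0.82 (SE 0.14, limma adjusted p = 0.0282) and passed in 4 of 12 fits without 1 array, with an adjusted p of up to 0.0879. Serpina12, which encodes the secreted protein vaspin, rose by 0.96 (SE 0.17, limma adjusted p = 0.0307; 4 of 12 fits, up to 0.096). C6, a terminal complement factor, ranged from 9.05 to 9.98 in control and from 9.89 to 11.02 in MSX arrays. Low-fat MSX replicate 2 lay below low-fat control replicate 1, so that C6 overlapped within a diet; it rose by 1.05 (SE 0.20, limma adjusted p = 0.0444; 2 of 12 fits, up to 0.114). Of 29 measured male-biased liver genes, 5 rose, 0 fell and 28 lay above 0 (49.5% of all genes did), and 20 lay higher at an unadjusted p under 0.05, against 5.33% of all genes. The list median was 0.38, with 0.30 on the low-fat and 0.82 on the high-fat diet. As a median deviation over its genes, the list lay between -0.65 and 0.09 in control and between -0.02 and 0.54 in MSX arrays, with high-fat control replicate 1 the lowest. Of 29 measured female-biased genes, Cd36 fell, 0 rose and 21 lay below 0, as did 50.5% of all genes. At an unadjusted p under 0.05, 11 lay lower and 1 higher, against 4.38% and 5.33% of all genes. The median of the female-biased list was -0.26, with -0.05 on the low-fat and -0.33 on the high-fat diet. Of 18 measured genes of growth hormone and IGF signalling 0 passed in either direction (limma), and 0 had an unadjusted p under 0.05. Hsd17b2, which inactivates estradiol and testosterone, rose by 0.64 and Akr1c14, a hydroxysteroid dehydrogenase, by 0.47 (limma adjusted p = 0.0483 for either; 1 and 0 of 12 fits, up to 0.133 and 0.14).

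Bile acid synthesis was represented by Cyp2c70, the enzyme that makes muricholic acids in mouse liver. Cyp2c70 read 9.73, 10.28 and 10.33 in low-fat control and 11.47, 11.31 and 12.31 in low-fat MSX arrays. High-fat control arrays read 10.26, 10.19 and 10.18 and high-fat MSX arrays 11.14, 12.03 and 11.15. Every MSX array lay above every control array, and 1 MSX array of each diet stood above the other 2 of its group. Cyp2c70 rose by 1.41 (SE 0.19, limma adjusted p = 0.00605). Of 24 measured genes of bile acid synthesis and transport 1 rose, 0 fell and the median was 0.05. At an unadjusted p under 0.05, 9 lay higher and 4 lower, against 5.33% and 4.38% of all genes. Abcb11, the bile salt export pump, ranged from 9.91 to 10.45 in control and from 10.53 to 10.85 in MSX arrays, and its change of 0.53 lay just outside the threshold (limma adjusted p = 0.0514). Cyp7a1, the rate-limiting enzyme, had a change of -0.31 (limma adjusted p = 0.829) with control arrays from 9.22 to 11.49.

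In cholesterol synthesis and transport 2 genes, Cyp51 and Stard4, rose. Cyp51, a sterol demethylase, read 6.15, 6.21 and 6.02 in low-fat control and 7.28, 7.34 and 7.10 in low-fat MSX arrays. The high-fat control values were 7.36, 7.48 and 7.44, and those with MSX 7.85, 7.69 and 7.58. Only the low-fat control arrays were low, and the high-fat MSX arrays lay just above the high-fat control arrays. Cyp51 rose by 0.70 (SE 0.14, limma adjusted p = 0.0483), with 1.11 on the low-fat and 0.28 on the high-fat diet. The interaction did not pass (limma adjusted p = 0.664). It passed in 1 of 12 fits without 1 array, with an adjusted p of up to 0.133. Stard4, a carrier of cholesterol inside cells, rose by 0.76 (SE 0.13, limma adjusted p = 0.028; 4 of 12 fits, up to 0.0749), by 0.93 on the low-fat and 0.59 on the high-fat diet.

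Among 21 measured genes for making or taking up cholesterol, these 2 rose and 0 fell. Their list had a median of 0.30, with 0.47 on the low-fat and 0.06 on the high-fat diet. At an unadjusted p under 0.05, 10 of its genes lay higher and 1 lower, against 5.33% and 4.38% of all genes. Of 21 measured genes of fatty acid synthesis 0 passed (limma), while 11 lay higher and 0 lower at an unadjusted p under 0.05. The same shares of all genes, 5.33% and 4.38%, stand beside these counts. The list median of fatty acid synthesis was 0.31 (0.52 and 0.06 on the low-fat and high-fat diet). A difference between diets was not tested for either list, and 0 of all genes passed the interaction test (limma). Fasn, the fatty acid synthase, had 1.54 on the low-fat and 0.01 on the high-fat diet (average 0.77, limma adjusted p = 0.287). Of the 21 genes of lipoprotein assembly and clearance, Sort1, a sorting receptor for apolipoprotein B, rose. Sort1 read 6.63, 6.41 and 6.62 in low-fat control and 7.57, 7.15 and 7.46 in low-fat MSX arrays. In high-fat arrays it read 7.43, 6.95 and 7.16 in control and 7.66, 8.21 and 7.88 in MSX arrays. It overlapped across diets but not within one, rose by 0.79 (SE 0.12, limma adjusted p = 0.00966), and passed in all 12 fits without 1 array. A dimmer probe set of Sort1 gave -0.10, and with the mean of both Sort1 did not pass.

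**Figure D2:**
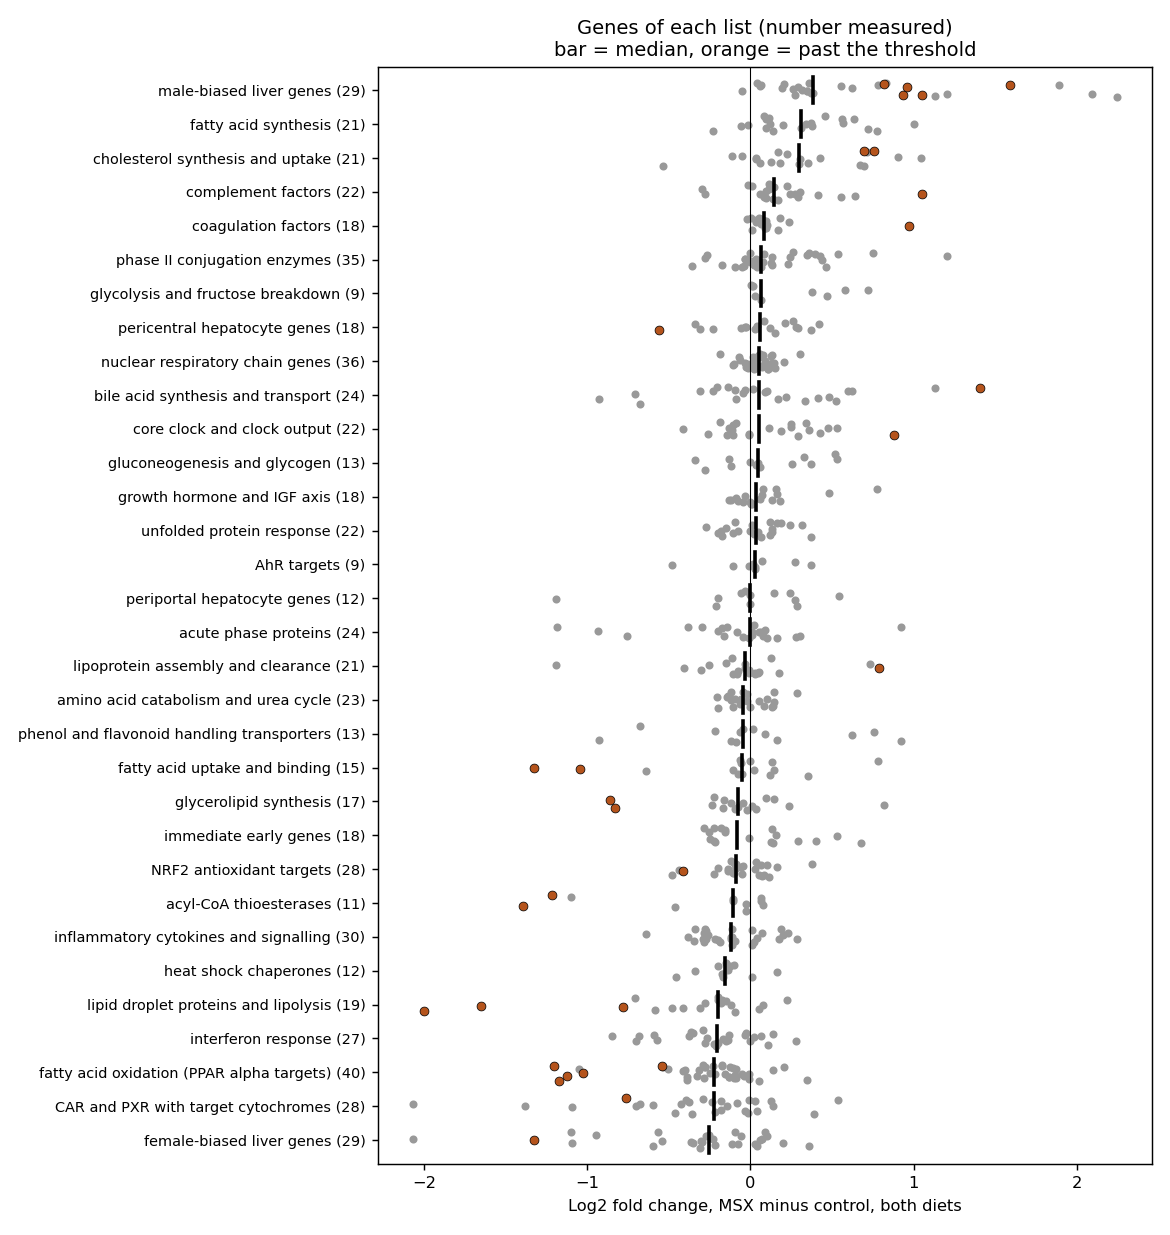
Average log2 fold change, MSX minus control over both diets (horizontal axis), of the measured genes of each list (rows, number of genes in brackets); points are genes, orange points passed the threshold and bars are list medians. Medians run from -0.26 in female-biased liver genes to 0.38 in male-biased ones, and the called genes of the lipid droplet and fatty acid oxidation lists all lie below 0.

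F11, which encodes coagulation factor XI, had the lowest p of the genes that rose. It read 8.91, 8.67 and 8.69 in low-fat control and 9.86, 9.78 and 9.39 in low-fat MSX arrays. High-fat control arrays read 8.47, 8.66 and 8.84 and high-fat MSX arrays 9.61, 9.82 and 9.64. The MSX arrays lay above all control arrays, and both diets held 1 range per agent. F11 rose by 0.97 (SE 0.10, limma adjusted p = 0.000832), by 0.92 on the low-fat and 1.03 on the high-fat diet. Of 18 measured coagulation factors F11 passed and 0 fell, and the list median was 0.08. Bhlhe41, a repressor of the circadian clock, ranged from 5.15 to 5.56 in control and from 5.80 to 6.48 in MSX arrays. The ranges did not overlap, and Bhlhe41 rose by 0.88 (SE 0.12, limma adjusted p = 0.00511), by 0.65 on the low-fat and 1.11 on the high-fat diet. Of 22 measured clock and clock output genes it was the 1 that passed, and the list median was 0.05. At an unadjusted p under 0.05, 7 of the 22 lay higher and 1 lower, against 5.33% and 4.38% of all genes. The sign was the same on both diets in 21 of the 22, and in 55% of all genes. Nox4, an NADPH oxidase that makes hydrogen peroxide, ranged from 8.13 to 8.46 in control and from 8.91 to 9.16 in MSX arrays and rose by 0.64 (limma adjusted p = 0.00511). Syt1, a calcium sensor of vesicle release, ranged from 6.60 to 6.79 and from 7.12 to 7.36 and rose by 0.55 (limma adjusted p = 0.00511). F11, Bhlhe41, Nox4 and Syt1 passed in all 12 fits without 1 array.

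Among the other genes that rose, Abcb10, a transporter of the mitochondrial inner membrane, rose by 0.52 (limma adjusted p = 0.00795) and passed in all 12 fits without 1 array. Cmtm6, which keeps the ligand PD-L1 at the cell surface, rose by 0.62 (limma adjusted p = 0.0178), and by 0.59 without low-fat MSX replicate 1 (adjusted p = 0.0626). Adgrf1, an adhesion G protein-coupled receptor, ranged from 4.30 to 5.05 in control and from 5.28 to 6.72 in MSX arrays and rose by 1.36 (limma adjusted p = 0.028; 4 of 12 fits, up to 0.0853). These 3 genes had no overlap between the 6 MSX and the 6 control arrays, as had 1.09% of all genes, and their choice on these arrays favours such gaps. Mgat2, an enzyme of N-glycan synthesis, rose by 0.58 (limma adjusted p = 0.0219; 6 of 12 fits, up to 0.067), and Abca2, a lysosomal transporter, by 0.59 (limma adjusted p = 0.0282; 3 of 12 fits, up to 0.0759). Dpy19l3, a mannosyltransferase, rose by 0.92 (limma adjusted p = 0.045; 2 of 12 fits, up to 0.114).

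Among the other genes that fell, Lamb3, a laminin chain, ranged from 5.88 to 6.32 in control and from 5.04 to 5.52 in MSX arrays and fell by 0.81 (limma adjusted p = 0.00511; all 12 fits). Fam102a fell by 0.53 (limma adjusted p = 0.00795; all 12 fits). Neat1, the long noncoding RNA of paraspeckles, fell by 0.71 (limma adjusted p = 0.0178; 9 of 12 fits, up to 0.0614). The chemokine gene Ccl22 was dim, from 4.29 to 4.89 in control and from 3.65 to 4.18 in MSX arrays, and fell by 0.70 (limma adjusted p = 0.0206; 9 of 12 fits, up to 0.062). Zbp1, a sensor of unusual nucleic acids that interferon induces, fell by 0.75 (limma adjusted p = 0.025; 7 of 12 fits, up to 0.08). Igtp, an interferon-induced GTPase, fell by 0.67 (limma adjusted p = 0.045; 0 of 12 fits, up to 0.115). In the list of 27 other measured interferon response genes 0 passed (limma), and the median was -0.21. Of these, 9 lay lower and 1 higher at an unadjusted p under 0.05, against 4.38% and 5.33% of all genes.

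Oat, a pericentral enzyme of ornithine breakdown, fell by 0.56 (limma adjusted p = 0.0219; 7 of 12 fits, up to 0.0728), and the 18 measured pericentral genes had a median of 0.06. Gpx4, which reduces lipid peroxides, fell by 0.42 (limma adjusted p = 0.0483; 1 of 12 fits, up to 0.129) and was the 1 of 28 measured NRF2 targets that passed. Cyp3a59 fell by 0.76 (limma adjusted p = 0.0473) and passed in 2 of 12 fits without 1 array, with an adjusted p of up to 0.116. It was the 1 of 28 measured genes of the xenobiotic receptors CAR and PXR that passed. In that list 12 lay lower and 1 higher at an unadjusted p under 0.05, against 4.38% and 5.33% of all genes. The list median was -0.23, and 15 of the 28 had the same sign on both diets, against 55% of all genes. Themis, known for its part in T cell development, read 4.78, 5.44 and 4.68 in low-fat control and 4.47, 4.75 and 4.15 in low-fat MSX arrays. The high-fat control values were 6.60, 6.46 and 6.31, and those with MSX 5.17, 4.82 and 4.98. High-fat control arrays stood alone at the top, and the low-fat groups overlapped. Themis fell by 0.99 (SE 0.19, limma adjusted p = 0.045; 3 of 12 fits, up to 0.116).

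The last named genes past the threshold passed in at most 2 of 12 fits without 1 array, with highest adjusted p-values of 0.1 to 0.139. Of these, Gba2, a glucosylceramidase, rose by 0.45, the G protein subunit Gna14 by 0.71, the autophagy kinase Ulk2 by 0.46, the aldehyde oxidase Aox3 by 0.56 and the chaperone-like Fkbp11 by 0.47. Rab30, a small GTPase of the Golgi, fell by 0.67. Fpgs, which adds glutamate to folates, fell by 0.47, and Slc25a10, the mitochondrial dicarboxylate carrier, by 0.43. Grn, the progranulin gene, fell by 0.49, the mitochondrial co-chaperone Grpel2 by 0.45, the adhesion protein gene Nectin1 by 0.48, the endocytosis gene Fcho1 by 0.55 and Denn2b by 0.59. All but Aox3 had no overlap between the 6 MSX and the 6 control arrays, as had 1.09% of all genes. The choice of genes on these same arrays favours such gaps, so they are no separate evidence. The other 5 of the 67 have provisional or small RNA names.

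Markers of other liver cells were read beside these genes, since in bulk liver fewer cells of a type and less RNA per cell cannot be told apart. Of the 16 measured T and NK cell markers, as of the markers of every other cell type listed, 0 passed the threshold (limma). The T and NK cell list lay between -0.05 and 0.09 in control and between -0.15 and 0.01 in MSX arrays, as a median deviation over its genes. Of 16 endothelial markers 14 lay above 0, against 49.5% of all genes, and 6 lay higher at an unadjusted p under 0.05, against 5.33%. That list had a median of 0.19 and lay between -0.30 and 0.12 in control and between -0.07 and 0.15 in MSX arrays. Of 18 macrophage and Kupffer cell markers 0 lay higher and 1 lower at an unadjusted p under 0.05, against 5.33% and 4.38% of all genes. High-fat control replicate 1 stood highest for cholangiocyte (0.64), stellate cell and matrix (0.54) and macrophage (0.55) markers. The part of these cells in the changes of Cidec, Themis, Ccl22 and the other genes was not tested.

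**Figure D3:**
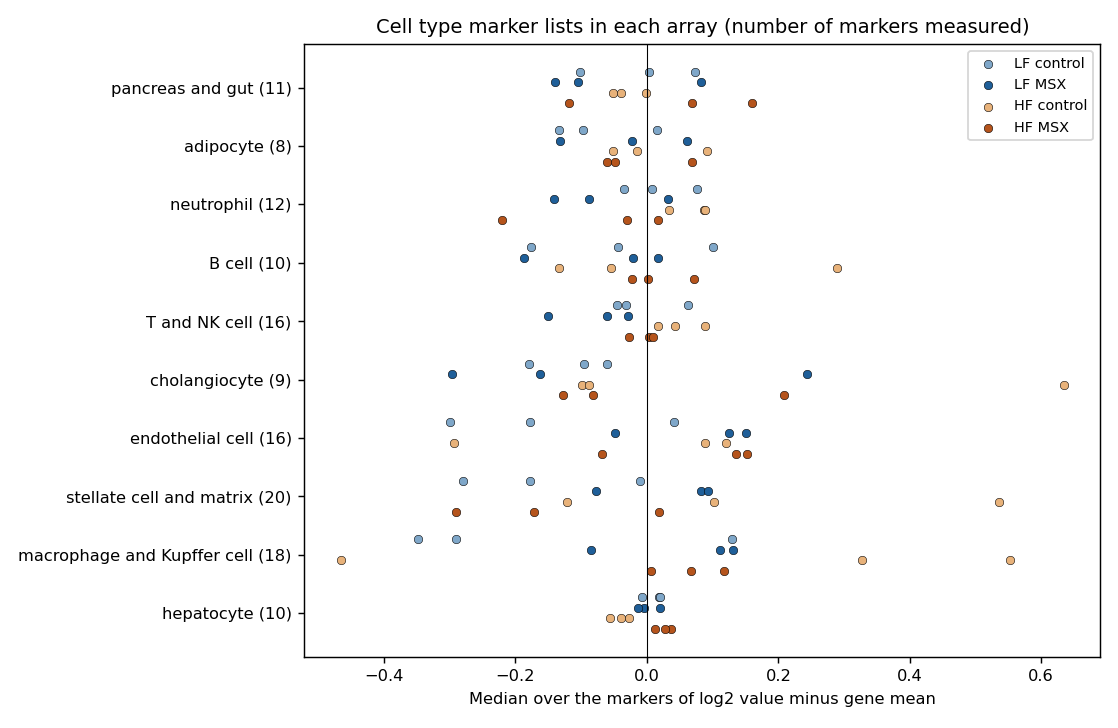
Median deviation of each cell type's markers from their means over the 12 arrays, in log2 units (horizontal axis), with 1 point per array coloured by group (LF low-fat, HF high-fat; number of markers measured in brackets). Hepatocyte markers stay within -0.06 to 0.04, and high-fat control replicate 1 is the rightmost point for cholangiocyte (0.64), stellate cell (0.54) and macrophage (0.55) markers.

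The 67 genes moved in 1 direction on both diets, which the averaging favours, and each had an unadjusted p under 0.05 when either diet was fitted alone on the same arrays. In 64 of them the MSX and control arrays did not overlap within either diet, against 1.91% of all genes, and C6, Themis and Cyp3a59 were the exceptions. In 51 all 6 MSX arrays lay on 1 side of all 6 control arrays, against 1.09% of all genes. These were 22 of the 28 that rose (0.631% of all genes lay so) and 29 of the 39 that fell (0.455%). The 67 genes were chosen on these same arrays, which favours such gaps, so these counts are no separate evidence. The change was larger on the low-fat diet in 40 and on the high-fat diet in 27. The interaction of extract and diet, the test of a difference between diets, had an unadjusted p under 0.05 in 11 of the 67 and in 5.09% of all genes. After adjustment 0 of 22180 genes passed the interaction test in limma, with a smallest adjusted p of 0.664. Acot1, Cyp4a31, Retsat, Rab30, Lamb3, Cyp51 and Cyp4a14 were the genes among the 11 with the larger change on the low-fat diet, and Plin4, Hsd3b5, Themis and Bhlhe41 those with the larger change on the high-fat diet.

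**Figure D4:**
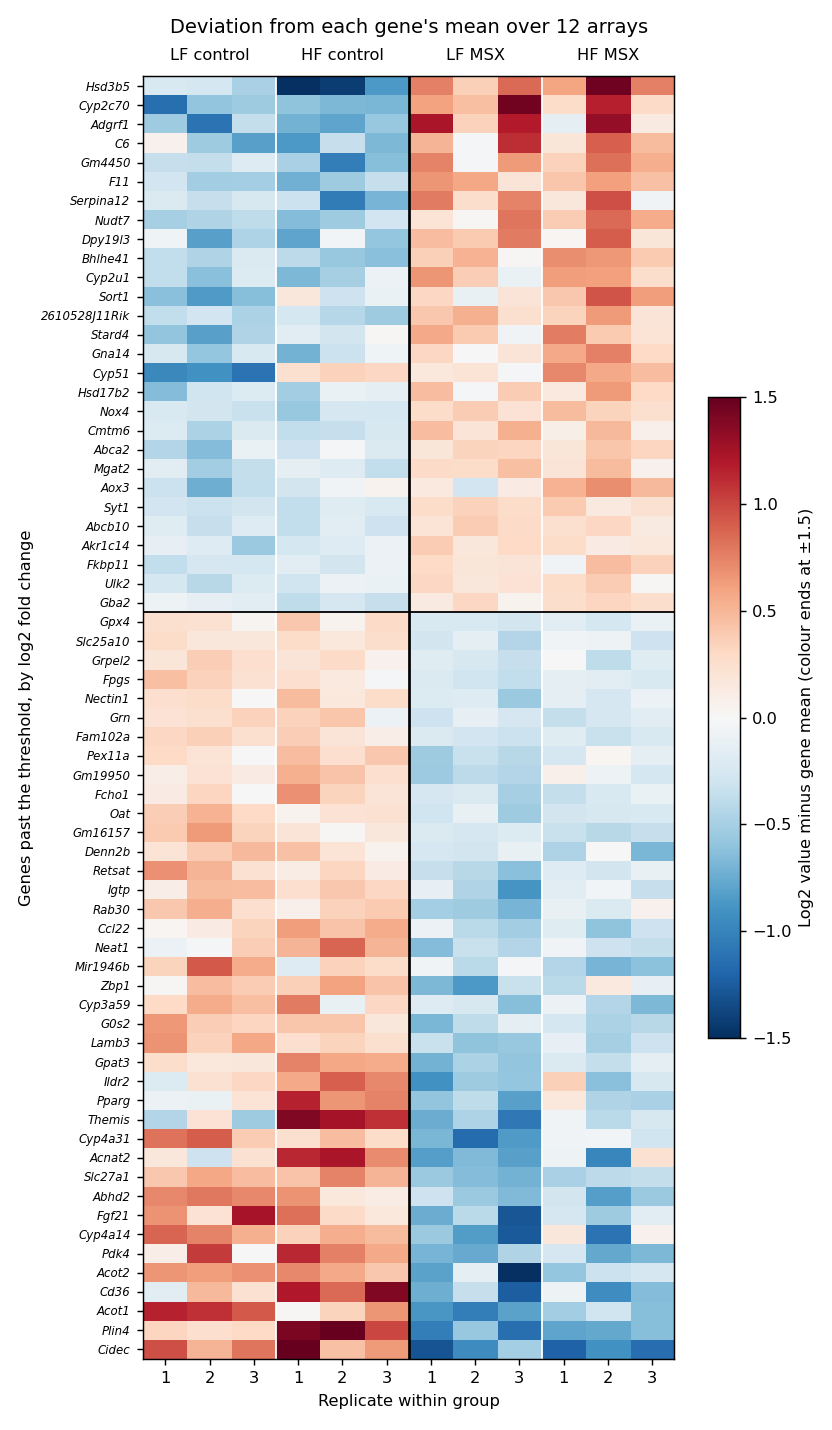
Log2 value minus the gene's mean over 12 arrays (colour) for the 67 genes past the threshold (rows, sorted by fold change) in the 12 arrays (columns, LF low-fat and HF high-fat). The 28 genes above the horizontal line are mostly blue in control and red in MSX arrays, the 39 below it the reverse, and Cyp51 and Themis differ most between diets within control.

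Taken from separate arrays, both diets could be set side by side over all genes. The 2 effects had the same sign in 12206 of 22180 genes (55%). An unadjusted p under 0.05 was reached by 1662 genes (7.49%) on the low-fat and 1449 (6.53%) on the high-fat diet. The 265 genes that reached it on both were 15.9% of the first and 18.3% of the second set, and 229 of them (86.4%) had 1 direction, 115 higher and 114 lower. On the low-fat diet alone 10 genes passed the adjusted threshold (0.0451% of all). All 10 had the same sign on the high-fat diet, and 7 an unadjusted p under 0.05 there. On the high-fat diet alone 2 genes passed (0.00902%), and both had the same sign and an unadjusted p under 0.05 on the low-fat diet. Across genes, which are not independent replicates, Pearson's r of both effects was 0.208 and Spearman's rho 0.147, and r was 0.359 over the 11501 genes with a mean level of at least 5.

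**Figure D5:**
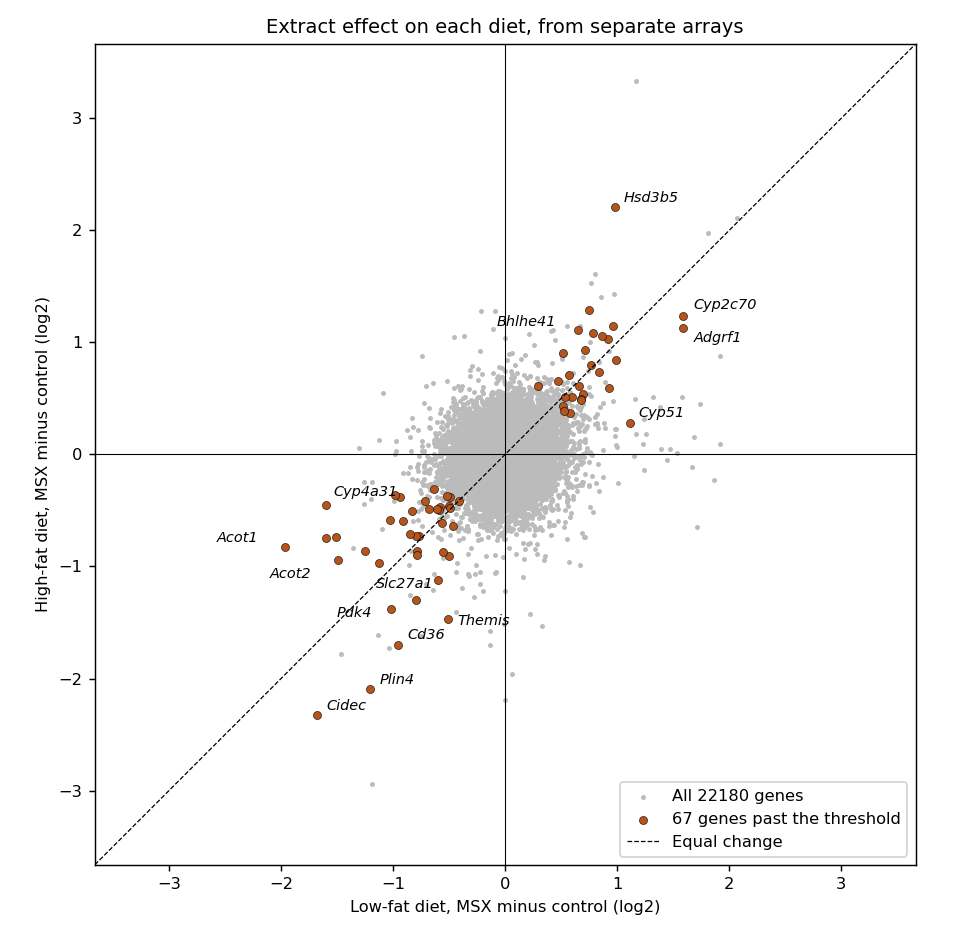
Extract effect on the low-fat diet (horizontal axis) against that on the high-fat diet (vertical axis), both as log2 MSX minus control, for all 22180 genes (grey) and the 67 genes past the threshold of the average effect (orange); the dashed line marks equal change. All orange points lie below 0 on both axes or above 0 on both, for example Cidec (-1.68 and -2.33) and Hsd3b5 (0.98 and 2.21).

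The diet itself had 0 genes past the threshold in the same model (limma), with a smallest adjusted p of 0.201 and an unadjusted p under 0.05 in 1277 genes (5.76%). Of the 67 genes 17 had such a p for diet, and in 11 of these the diet and extract effects had opposite signs. The share of opposite signs over all genes was not computed, so 11 of 17 is not read as a pattern. The genes named next are a part of the 17 and do not show how often the signs were opposite. Plin4 was 0.62 higher on the high-fat diet on average (unadjusted p = 0.0022), Cd36 0.59 (unadjusted p = 0.011), Pparg 0.60 (unadjusted p = 0.0012) and Gpat3 0.39 (unadjusted p = 0.00016), while each fell with MSX. The low-fat and high-fat means of Plin4 were 7.09 and 8.16 in control but 5.88 and 6.06 in MSX arrays. Cyp51, higher with MSX, was 0.88 higher on the high-fat diet (unadjusted p = 1.3e-05).

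Because Bhlhe41 rose and its protein is known to bind the E-box CACGTG, the start sites of the 67 genes were searched for this motif on both strands. RefSeq (GRCm38.p6) gave a window from 250 bases before to 50 bases after the start site for 55 of the 67. The E-box stood in 5 of these 55, a share close to the 9.19% of all 16990 genes with a window. Of the 5 genes, Fkbp11, which rose with MSX, had the E-box 20 bases after the start site. The stretches of the 4 genes with a match before the start site show it in capitals, 5′ to 3′ on the strand of the gene, with 20 bases on each side. They lie at chr8:71570372-71570417 (plus strand), chr6:145865548-145865593 (minus strand), chr7:45615515-45615560 (minus strand) and chr1:166254037-166254082 (plus strand).
Slc27a1: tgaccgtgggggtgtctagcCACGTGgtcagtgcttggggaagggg
Bhlhe41: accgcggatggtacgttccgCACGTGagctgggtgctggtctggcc
Fgf21: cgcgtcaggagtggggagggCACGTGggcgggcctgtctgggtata
Ildr2: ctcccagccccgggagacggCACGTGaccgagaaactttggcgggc
The E-box began 202 bases before the start site in Slc27a1, 153 in Bhlhe41, 50 in Fgf21 and 82 in Ildr2. Slc27a1, Fgf21 and Ildr2 fell with MSX and Bhlhe41 rose, so that both directions are present among the 4. The PPAR element, AGGTCA repeated in 1 direction with 1 base between, stood in 0 of the 55 windows and in 0.0647% of all genes, the sterol element TCACNCCAC in 1 (Syt1) and in 1.43%, and the STAT element TTCNNNGAA in 3 (Nox4, Mgat2 and Igtp) and in 9.15%. A match is a description of these letters and not a measured site.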

How the data were processed

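The authors deposited log2 values per probe set. The submitters' processing notes name the Transcriptome Analysis Console; version, normalization and genome build of the array were not given in the sources used here. They were used as deposited, with no filter on dim genes and no array left out. Of 41345 probe sets 23521 had 1 gene symbol in the platform annotation, and 1082 of the 22180 genes had several probe sets. Limma 3.58.1 (R 4.3.3, lmFit and eBayes, two-sided) fitted diet and agent to the 12 arrays (9 residual and 5.13 prior degrees of freedom), with Benjamini-Hochberg adjustment over all genes and a threshold of 0.05. Each diet was also fitted alone, and the interaction in a model with that term. The procedure was tested on simulated data. No batch is named in the labels, and the number of arrays limits the precision. The threshold's last gene inside had an adjusted p of 0.0483 and the first outside 0.0511.

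Genes named were the 15 per direction of lowest p, the 8 per direction of largest change past the threshold, the 3 of lowest p in each list and a panel; other called genes are named from the full set, chosen after their values were seen. Provisional gene names (5 of the 67) were counted only. Members and lists were chosen with earlier results of these data known. A list's value in an array is the median over its genes of log2 value minus gene mean.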

Additional observations from a re-analysis of the deposited data

Results flagged for a closer look

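When every probe set was tested, 2 probe sets that the platform annotation gives to several genes each, and that the gene-level comparison therefore did not use, passed the threshold (limma, adjusted p = 0.0374), with a change of 1.28. They carry the same values and cannot be given to 1 gene. Of the 16010 probe sets not listed in the annotation 0 passed (limma), and 1063 had an unadjusted p under 0.05.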

How the results depend on the processing

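The titles do not say whether equal replicate numbers mark paired arrays. Deviations of same-numbered arrays within a diet correlated at -0.065 to -0.017 on the low-fat and 0.08 to 0.112 on the high-fat diet. Of these 6 pairs, 2 were over 0.1. Control and MSX arrays of unlike number correlated at -0.041 to 0.082 on the low-fat and -0.089 to -0.002 on the high-fat diet. The 6 of 12 arrays that correlated best with their own number were those of the high-fat diet. Deviations sum to 0 over the 3 arrays of a group, so that higher same-numbered values go with lower unlike-numbered ones. These ranges and this count are therefore not separate observations. Why the diets differed here was not tested. With a replicate block 30 genes passed (11 higher, 19 lower), 29 of them among the 67, and 0 passed on either diet alone. Testing every probe set gave 21 (11 higher, 10 lower), genes with a mean level of at least 5 gave 141 (72 and 69), a trended robust prior 126 (59 and 67) and an adjusted p under 0.1 gave 123 (52 and 71). The other settings of the average effect (no diet factor, 4 group means, quantile normalization, equal medians, mean of probe sets, array weights) gave 56 to 77. Leaving out 1 array gave 26 to 53 genes, 11 to 23 higher and 15 to 30 lower. The low-fat diet alone gave 10 genes, 16 at a mean level of at least 5, and 1 to 17 without 1 array (17 without low-fat MSX replicate 3). The high-fat diet alone gave 2, 6 at that level, and 0 to 1 without 1 array. The interaction and the diet effect gave 0, and 0 to 1 without 1 array (1 without high-fat MSX replicate 1 and 1 without low-fat MSX replicate 1). The cause of these changes was not tested. Of the 67 genes 0 changed direction, 18 passed under every other alternative and 35 in 6 or fewer of the 12 fits without 1 array; Ppara (-0.04) ran from -0.0693 to 0.0182 without 1 array, above 0 only without low-fat MSX replicate 3. Of the 67 genes, 64 had a mean level of at least 5, against 51.9% of all genes.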

Other observations

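The gene groups below held no gene past the threshold (limma). Their counts at an unadjusted p under 0.05 stand beside 5.33% of all genes higher and 4.38% lower, and no group was tested against another. Among 35 measured phase II conjugation enzymes 8 lay higher and 1 lower at that level, with a median of 0.07. Fructose and glucose breakdown had 9 measured genes, of which 4 lay higher at that level and 4 had the same sign on both diets (medians 0.18 on the low-fat and 0.05 on the high-fat diet). Among them Tkfc, which phosphorylates glyceraldehyde from fructose, had 0.58 (limma adjusted p = 0.0955). Among 30 inflammatory genes 0 lay higher and 6 lower, with a median of -0.12, and among 12 heat shock chaperones 0 lay higher and 3 lower, with a median of -0.16. Of 24 acute phase genes 1 lay higher and 3 lower, and the medians were 0.15 on the low-fat and -0.18 on the high-fat diet. Of 23 genes of amino acid breakdown and the urea cycle 1 lay higher and 0 lower (median -0.04), and of 36 nuclear respiratory chain genes 2 lay higher and 1 lower (median 0.05). Of 22 unfolded protein response genes 1 lay higher and 0 lower (median 0.03).

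Some large changes had large errors and did not pass. Moxd1 had 2.25 (SE 0.96, limma adjusted p = 0.466) and the male-biased pseudogene Serpina4-ps1 2.09 (SE 0.71, limma adjusted p = 0.322), and the cytochrome Cyp2b9, known for higher levels in female liver, had -2.07 (SE 0.92, limma adjusted p = 0.488). Selenbp2 had 1.89 (SE 0.40, limma adjusted p = 0.0758). These 4 genes were chosen after their values were seen, and they had the same sign on both diets. The metallothionein genes Mt1 and Mt2, which bind zinc and copper, had -0.93 (limma adjusted p = 0.244) and -1.18 (limma adjusted p = 0.289).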
